A study of Arabidopsis thaliana with 30 samples.

Results

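The plant cuticle is a layer of cutin, a polyester of hydroxylated fatty acids, that is embedded in and covered by waxes. Here, transcript levels of 38 Arabidopsis genes that build, export or control cutin and wax were compared among 7 tissues of the inflorescence stem. The genes were listed by identifier for their known functions, but the list and the roles were chosen with earlier results of these data known. Shares among these genes are thus not independent of the data. They are 38 of the 37051 genes counted, and 37 of them had enough reads to be tested. The exception was MYB106, a MIXTA-like regulator of epidermal cell shape and cuticle, which had between 0 and 4 reads in a library and none in 19 of the 30 libraries.

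Aerial epidermis cells make the cuticle. In the endoplasmic reticulum, an elongase complex extends fatty acids to very long chains, which then enter an alkane-forming branch or a branch that yields primary alcohols and wax esters. Cutin monomers are formed separately by acyltransferases and cytochrome P450 hydroxylases, and ABC transporters and lipid transfer proteins carry both kinds of lipid to the cell surface.

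All plants were of the Col-0 accession, and each line was homozygous for 1 reporter, GFP-tagged histone H4 driven by the promoter in its name. Nuclei were released from the second internode counted from the base of the stem and sorted by fluorescence. GFP-positive nuclei came from NST3pro:H4-GFP (fibers), VND7pro:H4-GFP (differentiating vessel elements), PXYpro:H4-GFP (proximal cambium and differentiating xylem), SMXL5pro:H4-GFP (distal cambium and differentiating phloem), APLpro:H4-GFP (differentiated phloem), SCRpro:H4-GFP (starch sheath) and LTP1pro:H4-GFP (epidermis). GFP-negative nuclei, which include those of the unlabeled tissues, came from the NST3pro, SMXL5pro and APLpro lines. Each of the 10 groups had 3 libraries, and about 15000 nuclei were sorted for each library, except LTP1pro replicate 21 with 10800. Only a part of the RNA of these nuclei was used for the library. A tissue is represented by 1 line, so the cells in which its promoter is active define it, and the labels do not say whether the libraries of a group came from separate plants. P-values thus measure the spread between these libraries, which may be technical.

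Libraries held 725545 to 18335693 reads on genes, with a range of 1918733 to 18335693 in GFP-positive nuclei. The 7 tissues were compared with 17 of the 21 GFP-positive libraries (2 for NST3pro, VND7pro, APLpro and LTP1pro, 3 for the others). The remaining libraries, which the study had set aside as outliers, are given separately. Levels are normalised read counts, that is, CPM (read counts scaled to a common library size) after TMM scaling, and they average over the sorted nuclei, so that fewer expressing nuclei and less RNA per nucleus cannot be told apart. Of 5 epidermis markers, PDF2 and FDH were higher in LTP1pro nuclei than in the mean of the other tissues, whereas ATML1 missed the threshold (adjusted p = 0.0191, edgeR's quasi-likelihood test) and PDF1 and ACR4 had their highest means in SCRpro and APLpro nuclei, with PDF1 close to 0 in LTP1pro nuclei (mean 2.67). The summed level of these 5 markers, in CPM, was 300 to 498 in the 3 LTP1pro libraries, 232 to 299 in SMXL5pro, 173 to 280 in APLpro and at most 211 in the other tissues.

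Among the 7 tissues, 19 of the 37 tested genes differed at an adjusted p of 0.01 (edgeR's quasi-likelihood test with Benjamini-Hochberg adjustment), compared with 26.1% of all genes tested. In LTP1pro nuclei, 16 of the 37 were higher than in the mean of the other 6 tissues and 0 were lower, whereas 3.11% of all genes were called higher and 6.12% lower. The log2 fold change was positive for 35 of the 37, and its median was 1.35, compared with 0.33 over all genes. With LTP1pro libraries centred on that median, a setting chosen after seeing the data, 12 were higher. LTP1pro nuclei had the highest mean for 24 of the 37 (21.8% of all genes) and the second highest for 6. For 17 of the 37 both LTP1pro libraries lay above each of the 15 other libraries (3.97% of all genes), among them 14 of the 16 that were called, the exceptions being CER10 and CER5.

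**Figure D1:**
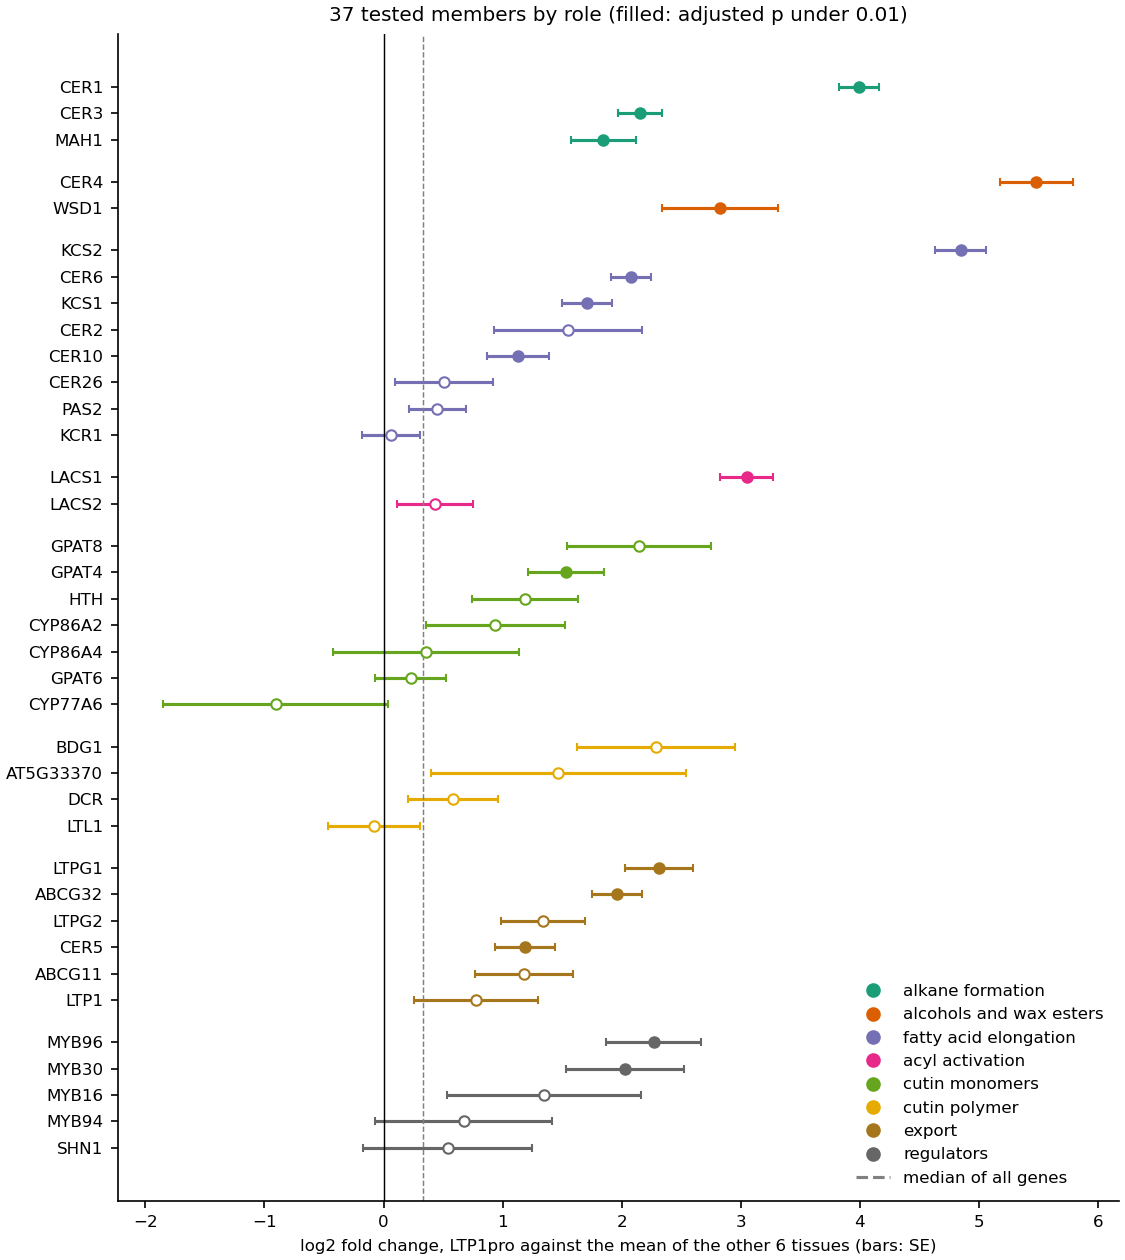
Log2 fold change (x axis) of each of the 37 tested genes in LTP1pro nuclei against the mean of the other 6 tissues, grouped by role, with SE as bars, filled points for an adjusted p under 0.01 and a dashed line at the median of all genes (0.33). CER4, KCS2 and CER1 lie farthest to the right, all 5 genes of the alkane and the alcohol and ester groups are filled, and 1 of the 11 cutin genes, GPAT4, is filled.

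By role, all 5 genes of wax product synthesis were higher in LTP1pro nuclei (3 of 3 in alkane formation, 2 of 2 in alcohols and wax esters), as were 4 of 8 in fatty acid elongation, 1 of 2 in acyl activation, 3 of 6 in export and 2 of 5 tested regulators. Of the 11 genes of cutin, 1 of 7 for monomers and 0 of 4 for the polymer passed the test. Among all genes, 3.11% were called higher in LTP1pro nuclei. With 4 genes, a count of 0 cannot be told apart from that share. The summed level of the alkane-forming genes had a mean of 2652 in LTP1pro nuclei and means from 255 to 407 in the other tissues, whereas that of the cutin polymer genes was 77.4 in LTP1pro nuclei and 34.6 to 75.9 elsewhere. The cutin monomer sum lay between, at 218 in LTP1pro nuclei against 85.0 to 179. Most of the alkane sum in LTP1pro nuclei came from CER1, with 1754 and 2026 in its libraries. Whether the roles differed from each other was not tested.

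**Figure D2:**
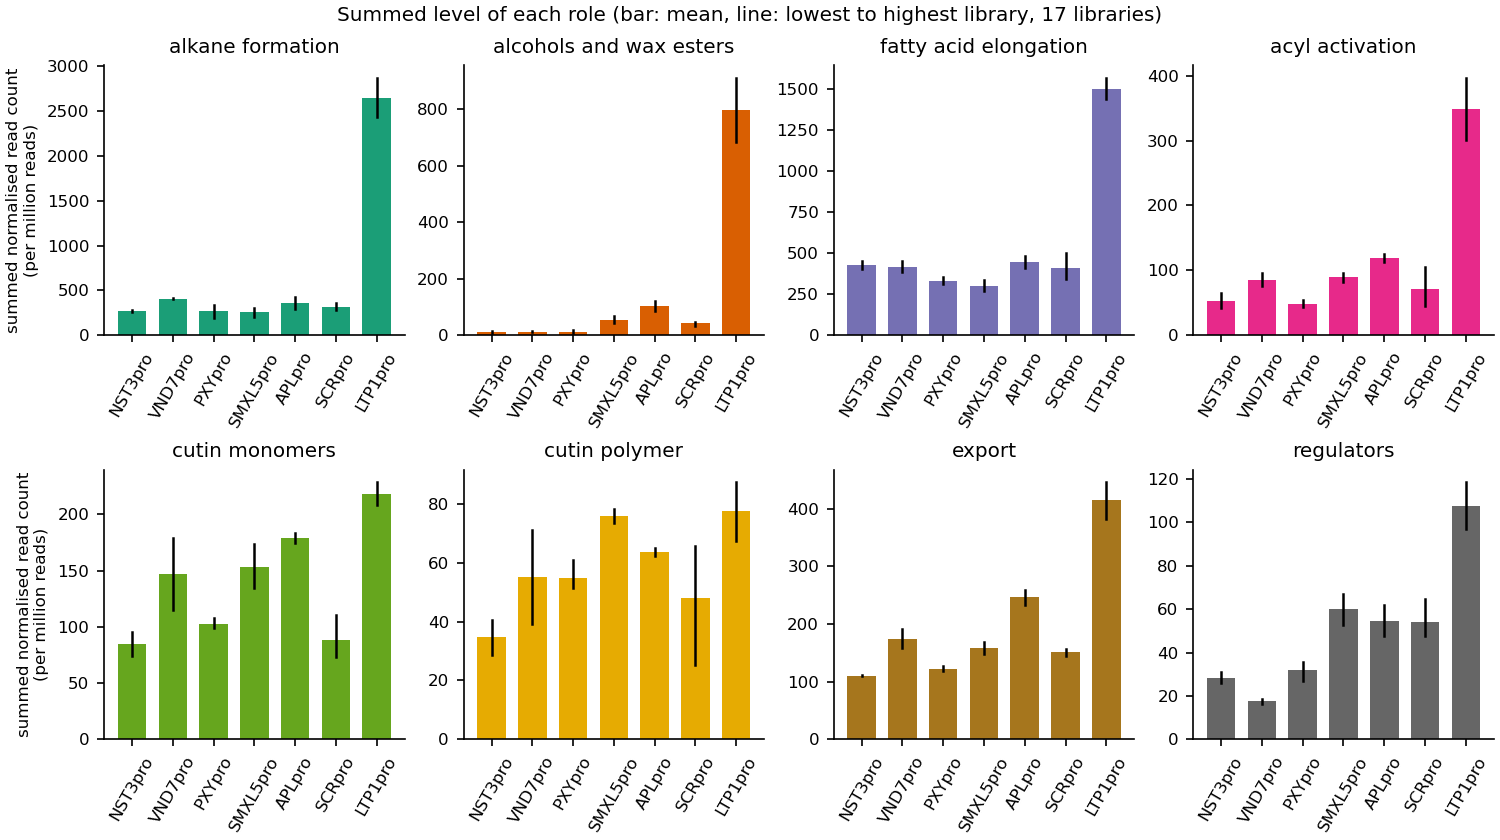
Summed normalised read count (y axis, CPM, starting at 0 with a separate scale in each panel) of the tested genes of each role in the 7 tissues, with bars for the mean and lines from the lowest to the highest of 2 or 3 libraries. LTP1pro nuclei stand far above all other tissues for alkane formation (2652 against 255 to 407) and for alcohols and wax esters (797 against 10.9 to 104), but the lines overlap with those of SMXL5pro and VND7pro nuclei for the cutin polymer. For alkane formation and for alcohols and wax esters, the LTP1pro sums came mostly from CER1 and CER4, respectively.

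CER1 (AT1G02205), the core enzyme of alkane formation (chromosome 1, 418416 to 422579, plus strand, TAIR10.1), had the highest level per kilobase of gene length in LTP1pro nuclei. Its normalised read count was 1754 and 2026 in the LTP1pro libraries, compared with 81.5 and 73.4 in NST3pro, 156 and 130.1 in VND7pro, 134, 172 and 96.6 in PXYpro, 127, 161 and 98.1 in SMXL5pro, 174 and 119 in APLpro and 91.4, 124 and 81.7 in SCRpro libraries. The 15 other libraries thus fell into a narrow band, and both LTP1pro libraries lay far outside it. The log2 fold change of LTP1pro against the mean of the other tissues was 3.99 (SE 0.17, adjusted p = 2.28e-12, edgeR's quasi-likelihood test). CER3 (AT5G57800), which works with CER1 in making alkanes (chromosome 5, 23420184 to 23424117, plus strand), reached 496 and 630.1 in LTP1pro libraries, whereas the other 15 ranged from 79.8 through a median of 121 to 183. It did not overlap between LTP1pro and the rest (log2 fold change 2.15, SE 0.18, adjusted p = 9.23e-08). The third gene of the group, MAH1 (AT1G57750), encodes the midchain hydroxylase that converts alkanes into secondary alcohols and ketones, and had 185 and 214 in LTP1pro libraries and at most 108 elsewhere (log2 fold change 1.85).

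CER4 (AT4G33790), the fatty acyl-CoA reductase that makes primary alcohols (chromosome 4, 16204096 to 16207956, minus strand), showed the largest fold change of the 37. Its normalised read count was 636 and 822 in LTP1pro libraries. It was 98.8 and 52.3 in APLpro, 28.8, 44.9 and 30.9 in SMXL5pro and 30.2, 21.2 and 28.7 in SCRpro libraries, and it stayed at or below 14.9 in the 7 libraries of NST3pro, VND7pro and PXYpro nuclei. Among these 17 libraries, those of APLpro, SMXL5pro and SCRpro nuclei all lay above those of NST3pro, VND7pro and PXYpro nuclei, which did not hold for the libraries set aside (16.2 in APLpro 15 and 18.2 in NST3pro 2). Its log2 fold change in LTP1pro nuclei was 5.48 (SE 0.31, adjusted p = 1.63e-10, edgeR's quasi-likelihood test). WSD1 (AT5G37300), the wax ester synthase, had 48.9 and 88.2 in LTP1pro libraries against a lowest, median and highest of 0.792, 8.67 and 32.9 in the others (log2 fold change 2.83, SE 0.49, adjusted p = 0.000325). This call rested on LTP1pro replicate 21, without which the adjusted p was 0.0473.

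Among the elongation genes, CER6 and KCS2 stood out, both of them 3-ketoacyl-CoA synthases that catalyze the first step of each elongation cycle. CER6 (AT1G68530, chromosome 1, 25712414 to 25715024, minus strand), which the study had used as a known epidermis gene, had 589 and 669 in LTP1pro libraries and 67.5 to 227 (median 152) in the others, a log2 fold change of 2.08 (SE 0.17, adjusted p = 4.36e-08, edgeR's quasi-likelihood test). KCS2 (AT1G04220, chromosome 1, 1119699 to 1122786, minus strand), also known from suberin, had 469 and 488 in LTP1pro libraries. In the inner tissues KCS2 was highest in SMXL5pro libraries, at 44.3, 50.7 and 32.0, and ranged from 6.40 to 23.6 in the other 12. Its log2 fold change was 4.85 (SE 0.21, adjusted p = 3.28e-12). Of its length, 75.9% is covered by antisense genes, and since reads were counted without strand, those in the shared stretch went to neither gene. One of these neighbors, AT1G04210, did not separate the tissues, with 35.0 to 79.0 CPM in LTP1pro libraries and up to 74.4 in the others. The other, AT1G04247, lies wholly within KCS2 and so receives no reads under this rule, so that its transcription was not measured.

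KCS1 and CER10, the enoyl-CoA reductase of the elongase, were also called higher (log2 fold changes of 1.71 and 1.13), the latter only with both LTP1pro libraries in the fit (adjusted p = 0.0968 without replicate 20 and 0.0382 without replicate 21). The other core subunits were not. KCR1, the 3-ketoacyl-CoA reductase, had its highest mean in VND7pro nuclei, and PAS2, the dehydratase, differed from the rest by a log2 fold change of 0.45 (SE 0.24). The BAHD-type proteins CER2 and CER26, which are needed for the longest chains, had their highest means in APLpro nuclei, with LTP1pro nuclei second, and neither passed the test (adjusted p = 0.0888 and 0.418, edgeR's quasi-likelihood test). In acyl activation, LACS1 (CER8), a long-chain acyl-CoA synthetase of wax and cutin (AT2G47240, chromosome 2, 19392497 to 19397907, plus strand), had 253 and 346 in LTP1pro libraries and 10.8 to 61.3 (median 40.1) in the others (log2 fold change 3.05, SE 0.22, adjusted p = 6.92e-09). LACS2, its counterpart in cutin synthesis, had its highest mean in APLpro nuclei and a log2 fold change of 0.43 (SE 0.32).

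Against each single tissue in turn, 6 of the 37 were predominant in LTP1pro nuclei, meaning that the largest of 6 one-sided p-values passed 0.01 after adjustment (edgeR's quasi-likelihood test) and each log2 fold change exceeded 1. They were CER1, CER3, CER4, CER6, KCS2 and LACS1, while 0.0919% of all genes met the criterion. ABCG32 missed it with an adjusted p of 0.0257. CER1 and KCS2 met it in each of the 17 fits that left out 1 library. The other 4 did not, since 2 genes were left without APLpro 14, VND7pro 4, VND7pro 5, LTP1pro 20 or LTP1pro 21, each of which leaves a tissue with a single library, and 3 without APLpro 13. Per kilobase of gene length, the levels in LTP1pro nuclei ran from CER1 (454) over CER6 (241), CER4 (189), KCS2 (155) and CER3 (143) to LACS1 (55.3), and the value of KCS2 is an underestimate because of the shared stretch.

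**Figure D3:**
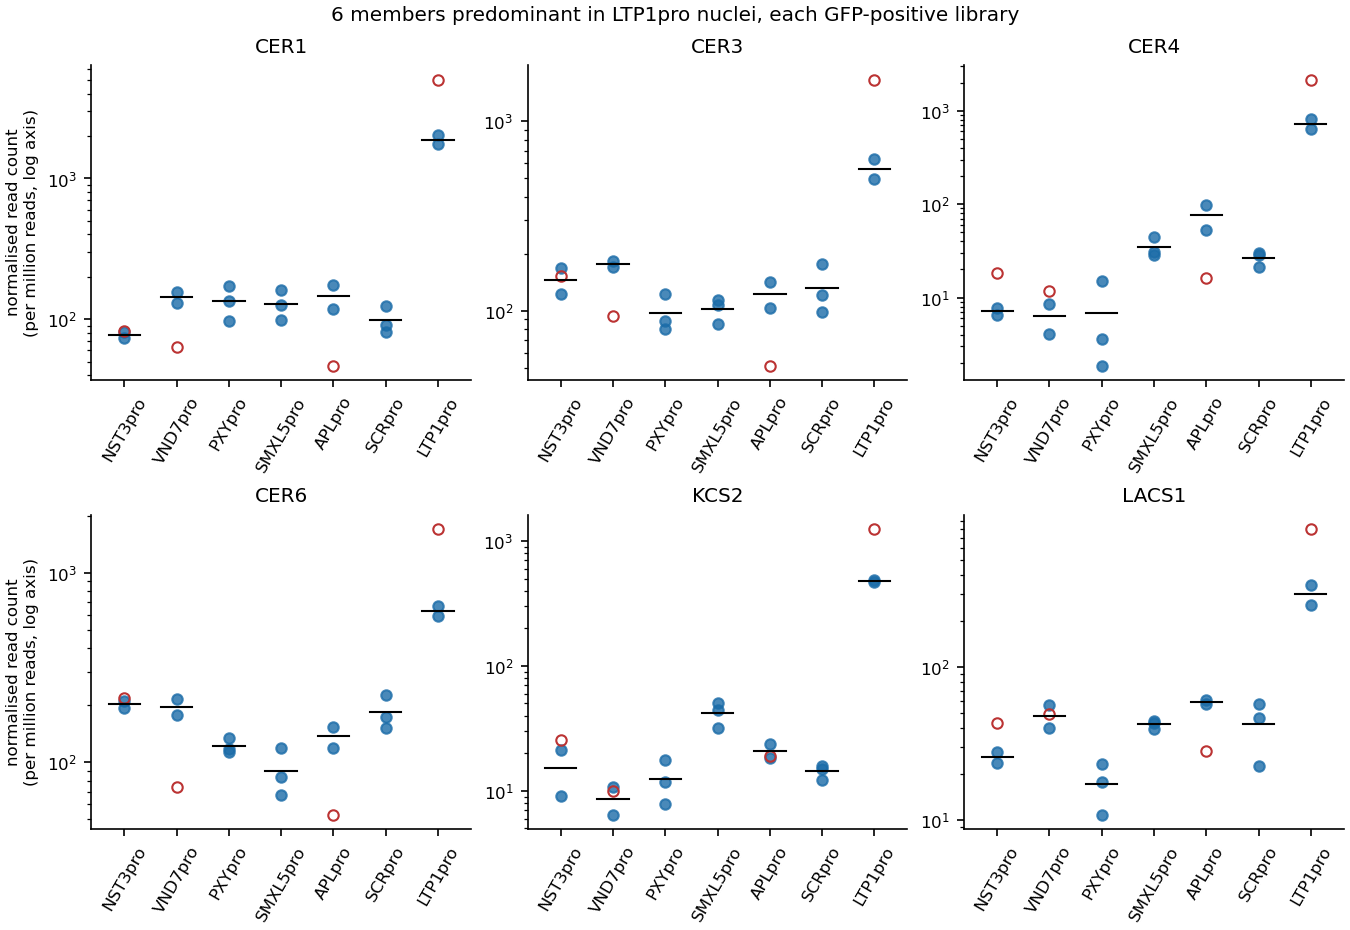
Normalised read count (y axis, CPM, log axis) of the 6 predominant genes in each GFP-positive library, with filled points for the 17 libraries compared, lines for their means and open circles for the 4 libraries that the study set aside (scaled among all 21). The LTP1pro points are the highest in every panel, with CER1 at 1754 and 2026, and the LTP1pro library set aside lies higher still.

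The sequences directly before the start of CER1, CER4 and KCS2, the genes with the largest fold changes, are shown together with those of CER6 and MYB96, which hold a searched motif, for comparison of genes that were high in the same nuclei. Each is the 250 bases before the annotated gene start in TAIR10.1 (RefSeq), read 5′ to 3′ on the strand of the gene. They lie at chr1:418166-418415 (CER1, plus strand), chr4:16207957-16208206 (CER4, minus strand), chr1:1122787-1123036 (KCS2, minus strand), chr1:25715025-25715274 (CER6, minus strand) and chr5:25081142-25081391 (MYB96, minus strand). Capitals mark the searched motifs, an AC element in CER6 and an L1 box in MYB96.
CER1: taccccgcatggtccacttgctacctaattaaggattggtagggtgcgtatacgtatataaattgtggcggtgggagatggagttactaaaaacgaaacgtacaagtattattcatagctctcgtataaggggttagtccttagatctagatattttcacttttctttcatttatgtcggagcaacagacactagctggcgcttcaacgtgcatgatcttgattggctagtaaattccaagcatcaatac
CER4: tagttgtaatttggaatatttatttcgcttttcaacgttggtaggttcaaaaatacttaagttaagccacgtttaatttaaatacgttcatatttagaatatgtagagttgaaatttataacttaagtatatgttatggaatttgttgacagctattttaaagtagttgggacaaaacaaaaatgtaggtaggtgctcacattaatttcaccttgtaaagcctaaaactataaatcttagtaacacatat
KCS2: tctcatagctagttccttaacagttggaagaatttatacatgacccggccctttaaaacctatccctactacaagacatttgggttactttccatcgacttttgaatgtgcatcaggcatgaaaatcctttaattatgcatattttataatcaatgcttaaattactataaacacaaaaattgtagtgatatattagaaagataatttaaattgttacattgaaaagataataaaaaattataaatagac
CER6: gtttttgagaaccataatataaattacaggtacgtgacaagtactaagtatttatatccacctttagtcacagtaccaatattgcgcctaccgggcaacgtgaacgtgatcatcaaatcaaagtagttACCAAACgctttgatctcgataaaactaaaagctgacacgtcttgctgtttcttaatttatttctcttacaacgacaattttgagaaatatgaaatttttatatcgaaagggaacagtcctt
MYB96: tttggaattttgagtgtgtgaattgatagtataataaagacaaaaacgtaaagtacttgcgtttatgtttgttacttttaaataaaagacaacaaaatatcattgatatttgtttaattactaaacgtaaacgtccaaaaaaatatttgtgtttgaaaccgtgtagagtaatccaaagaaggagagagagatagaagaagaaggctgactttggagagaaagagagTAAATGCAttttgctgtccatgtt
Searched on both strands were the L1 box (TAAATGCA or TAAATGTA), a motif bound by epidermal homeodomain factors, the AC element (ACCNAAC) of MYB factors and the GCC box (GCCGCC) of AP2/ERF factors. The L1 box occurred in 5 of the 38 windows (CER26, AT5G33370, ABCG11, MYB96 and MYB94) and in 4.48% of the windows of 27561 protein-coding genes. The AC element occurred in 7 of the 38 and in 14.5% of all windows, and the GCC box in 1 (GPAT6) and in 1.88%. Of the 6 predominant genes only CER6 held a match, an AC element that starts 122 bases before the gene, and MYB96 had an L1 box starting 24 bases before it. A match is a description of letters and does not show binding.

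Among the export genes, the lipid transfer protein gene LTPG1, the transporter gene ABCG32 and CER5 (ABCG12) were higher in LTP1pro nuclei. LTPG1 (AT1G27950) had 71.2 and 75.9 in LTP1pro libraries and 5.94 to 25.3 (median 14.9) in the others, without overlap (log2 fold change 2.32, SE 0.29, adjusted p = 9.23e-06, edgeR's quasi-likelihood test). ABCG32, known from cutin export, had 139 and 124 against at most 47.9. CER5, a wax transporter, had 77.6 and 128, overlapping with an APLpro library at 91.8, and its call was lost without LTP1pro replicate 21 (adjusted p = 0.192). Its partner ABCG11 did not pass the test (log2 fold change 1.18, SE 0.41, adjusted p = 0.0533). LTPG2, a relative of LTPG1, lay above all 15 other libraries at 32.6 and 35.2 but missed the threshold (adjusted p = 0.0117).

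Of the regulators, the MYB factors MYB96 and MYB30, both activators of wax genes, passed the test. MYB96 (AT5G62470) had 58.6 and 39.8 in LTP1pro libraries and 2.05 to 26.3 (median 11.3) in the others, and its log2 fold change was 2.27 (SE 0.39, adjusted p = 0.000371, edgeR's quasi-likelihood test). Without LTP1pro replicate 20 the adjusted p was 0.0428. MYB30 (AT3G28910) had 34.0 and 24.3 against 0.396 to 20.7 (median 11.5), with a log2 fold change of 2.03 (SE 0.49, adjusted p = 0.00664), and this call was lost in 8 of the 17 fits without 1 library, with an adjusted p of up to 0.151 (without LTP1pro replicate 20). SHN1, an AP2/ERF activator of cutin and wax genes, MYB94 and MYB16 were low throughout and had their highest means in SMXL5pro, SMXL5pro and LTP1pro nuclei, respectively.

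Of the 11 cutin genes, 1 was called higher in LTP1pro nuclei (3.11% of all genes). Both LTP1pro libraries lay above each of the 15 others for GPAT4, GPAT8 and BDG1, and for 3.97% of all genes. GPAT4, a glycerol-3-phosphate acyltransferase, was the only called gene of the 11, with 57.8 and 56.1 in LTP1pro libraries and at most 34.0 elsewhere (log2 fold change 1.54, SE 0.32, adjusted p = 0.00200, edgeR's quasi-likelihood test). This call was lost without either LTP1pro library (adjusted p = 0.0462 and 0.0358). GPAT8, which acts together with GPAT4, and BDG1, a hydrolase of cutin formation, also lay above all 15 other libraries but missed the threshold (adjusted p = 0.0173 and 0.0198). CYP77A6, a midchain hydroxylase, had 2.02 and 4.87 in LTP1pro libraries, within the range of the others from 0.525 to 21.2. The LTP1pro library set aside had 26.1 when scaled among all 21 libraries. Low counts limit what can be seen here, since the SE of the log2 fold change of CYP77A6 was 0.94. The remaining cutin genes did not pass the test either. CYP86A4 and CYP86A2, fatty acid hydroxylases, and LTL1, a GDSL-type lipase, had their highest means in APLpro nuclei. HTH, an oxidoreductase that acts on hydroxy fatty acids, and DCR, an acyltransferase needed for cutin assembly, were highest in LTP1pro nuclei (adjusted p = 0.0688 and 0.299). AT5G33370, another GDSL-type lipase, had at most 10.7 in any of the 15 other libraries and 3.44 to 5.66 in LTP1pro libraries.

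The LTP1pro library that the study had set aside (replicate 19) was higher still in wax transcripts. Scaled among all 21 libraries, CER1 reached 5042 in it, compared with 1768 and 2051 in the other LTP1pro libraries. All 16 called genes exceeded both other LTP1pro libraries in replicate 19, by 1.57-fold (CER5) to 2.93-fold (CER4) over their mean, compared with 9 of the other 21 genes and 33.1% of all genes. In contrast, HTH, CER26, SHN1 and BDG1 were lower in replicate 19, at 0.129 to 0.217 times the mean of the other LTP1pro libraries. They were named after the values had been seen and had only 11, 9, 3 and 10 reads in it. Smaller drops were seen for DCR (0.388), AT5G33370 (0.558) and GPAT6 (0.599), among others. The share of all genes that fell this far was not determined. Of the cutin genes not called, CYP77A6 was higher in replicate 19, at 26.1 against 2.04 and 4.93 (7.48 times their mean). GPAT8 (2.23), CYP86A4 (2.19) and LTL1 (1.57) were also higher in it. With all 21 libraries in the fit, 18 of the 37 genes were higher in LTP1pro nuclei.

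Outside the epidermis, few of the genes were called higher. The mean used in each of these tests includes LTP1pro nuclei, which works by construction against such a call for a gene far higher there. The counts of calls thus do not measure how low the levels were, and CER6 still had 67.5 to 227 in the 15 libraries other than LTP1pro. In VND7pro nuclei 2 of the 37 were higher than in the mean of the other 6 tissues (10.3% of all genes), namely GPAT6 and LTP1, and in APLpro nuclei 2 were higher (1.00% of all genes), namely CER4 and LTP1. None was higher in NST3pro, PXYpro, SMXL5pro or SCRpro nuclei (8.76%, 7.38%, 2.13% and 6.36% of all genes). The count at an unadjusted p under 0.05, in either direction, was 12, 16, 12 and 6 in these tissues, and the share of all genes at that level was not determined. The log2 fold change was positive for 6, 5, 24 and 14 of the 37 genes. GPAT6 (AT2G38110), an acyltransferase of cutin monomers known from flowers, had 81.5 and 87.4 in VND7pro libraries and 10.4 to 55.0 in the other 15, with LTP1pro replicate 20 at the upper end. Its log2 fold change in VND7pro nuclei was 1.42 (SE 0.26, adjusted p = 0.000407, edgeR's quasi-likelihood test). The VND7pro library set aside (replicate 6) had 43.8, and with all 21 libraries only LTP1 was called in VND7pro nuclei. The GPAT6 call was lost without VND7pro replicate 4 or 5.

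LTP1, a secreted lipid transfer protein whose promoter drove the reporter of the epidermis line (AT2G38540, chromosome 2, 16130290 to 16131240, plus strand), was not highest in that line. Its normalised read count was 22.6 and 29.2 in LTP1pro libraries, compared with 62.1 and 73.4 in VND7pro, 73.9 and 42.5 in APLpro, 27.7, 9.02 and 8.89 in SCRpro, 12.01 and 7.23 in NST3pro, 4.98, 4.22 and 8.07 in SMXL5pro and 6.78, 0.481 and 3.85 in PXYpro libraries. LTP1pro nuclei thus ranked below VND7pro and APLpro nuclei, and against the mean of the other tissues LTP1 did not pass the test there (log2 fold change 0.78, SE 0.52, adjusted p = 0.320, edgeR's quasi-likelihood test). In single comparisons LTP1pro exceeded PXYpro nuclei (log2 fold change 2.82, SE 0.68, adjusted p = 0.00546), whereas the differences from VND7pro (-1.38, SE 0.73) and APLpro (-1.16, SE 0.72) did not pass the test (adjusted p = 0.188 and 0.604). LTP1 was called higher in VND7pro nuclei (2.39, SE 0.46, adjusted p = 0.000527) and in APLpro nuclei (2.14, SE 0.45, adjusted p = 0.00474) than in the mean of the other tissues. Of the libraries set aside, LTP1pro 19 had 42.7, VND7pro 6 had 30.6 and APLpro 15 had 6.62. The LTP1 calls in both tissues were lost when either of the 2 libraries of that tissue was left out, and the APLpro call also without VND7pro replicate 4 or with all 21 libraries.

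**Figure D4:**
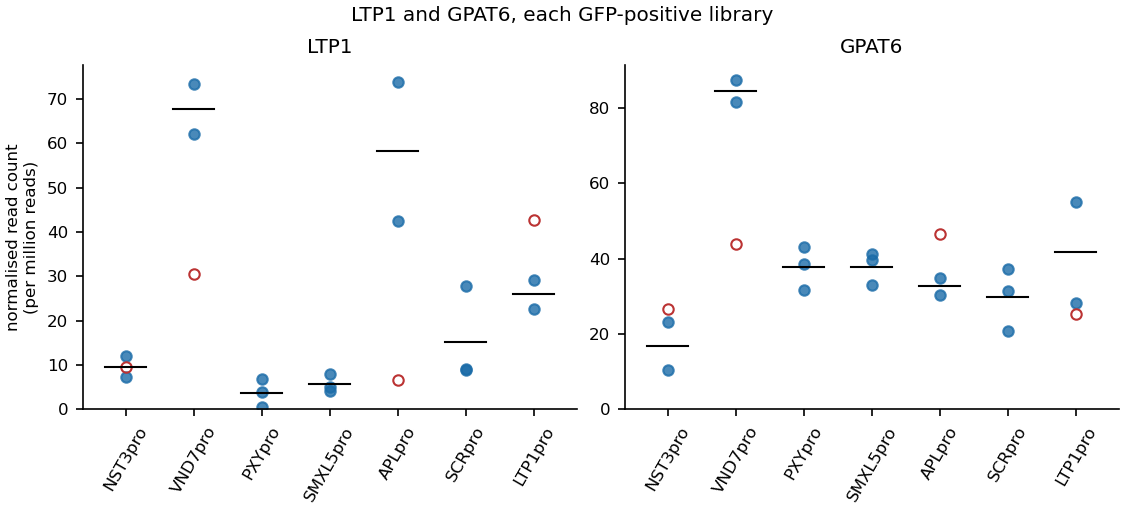
Normalised read count (y axis, CPM) of LTP1 and GPAT6 in each GFP-positive library, with filled points for the 17 libraries compared, lines for their means and open circles for the 4 libraries set aside. LTP1 is highest in VND7pro (62.1 and 73.4) and APLpro (73.9 and 42.5) libraries rather than in LTP1pro libraries (22.6 and 29.2), and GPAT6 is highest in VND7pro libraries (81.5 and 87.4).

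CER4 was called higher in APLpro nuclei at a log2 fold change of 1.67 (SE 0.36, adjusted p = 0.00489, edgeR's quasi-likelihood test), although its level there was far below that in LTP1pro nuclei. The library set aside had 16.2, below both others, and the call was lost without either of them, without VND7pro replicate 4 or without LTP1pro replicate 20. Of 5 guard cell markers, 1 was called higher in APLpro nuclei (1.00% of all genes). KAT1, FAMA and EPF1 had their highest means there, but HT1 had it in SMXL5pro and MYB60 in LTP1pro nuclei. The summed level of 5 guard cell markers was 305 to 496 CPM in the 3 APLpro libraries and 49.9 to 133 in LTP1pro libraries, most of it from the potassium channel gene KAT1 (mean 315 in APLpro and 32.8 in LTP1pro nuclei), and its part in the levels of CER4 and LTP1 was not tested. For the 24 genes that were highest in LTP1pro nuclei, the second highest mean was in APLpro for 13 and in SMXL5pro nuclei for 6. These were also the tissues that followed the LTP1pro group in the epidermis marker sum, whose part in these levels was not tested. The share of all genes with this order was not determined. Among tissues other than LTP1pro, the median log2 fold change over all genes was also largest in SMXL5pro (0.36) and APLpro nuclei (0.31). Over the 37 tested genes it was 0.16 in SMXL5pro and 0.57 in APLpro nuclei. Whether the order is particular to these genes was not tested.

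Calls below the mean of the other tissues were made for 5 genes in NST3pro (3.29% of all genes), 3 in VND7pro (2.05%), 5 in PXYpro (0.723%), 4 in SMXL5pro (11.4%), 1 in SCRpro (1.59%) and 0 in APLpro nuclei (2.96%). That mean includes LTP1pro nuclei, so a gene far higher there lies below it in the inner tissues by construction. CER4 was below it in NST3pro, VND7pro and PXYpro nuclei. GPAT6 and LTPG2, which were not called in LTP1pro nuclei, were lower in fibers (log2 fold changes of -1.31 and -2.18 in NST3pro nuclei, adjusted p = 0.00695 and 0.00199, edgeR's quasi-likelihood test), and LTP1 in PXYpro nuclei (-2.51, adjusted p = 0.00366). With all 21 libraries these 3 calls were lost, and the counts of lower genes fell to 0 in NST3pro, SMXL5pro and SCRpro and to 2 in PXYpro nuclei. The LTPG2 call was also lost without NST3pro replicate 1 or 3, the LTP1 call without PXYpro replicate 8 or 9, and the GPAT6 call without NST3pro 3, VND7pro 4, VND7pro 5, APLpro 13 or any single SMXL5pro library. Without 1 library 2 to 6 genes were lower in NST3pro nuclei (2 without replicate 3), 1 to 4 in VND7pro (1 without replicate 4 or 5), 3 to 6 in PXYpro (3 without replicate 8 or 9), 2 to 5 in SMXL5pro (2 without replicate 10 or 12) and 0 to 2 in SCRpro nuclei (0 without replicate 16 or 18).

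GFP-positive and GFP-negative nuclei were also compared within the 3 lines, with 3 libraries each. At an adjusted p of 0.05, 0 of the 37 genes were called higher or lower in each line (edgeR's quasi-likelihood test). The background was low too, with 0% of all genes called in either direction in the NST3pro line, 0.00660% higher and 0% lower in the SMXL5pro line, and 0.0994% higher and 0% lower in the APLpro line. At an unadjusted p under 0.05, 0, 10 and 13 of the 37 genes differed in the NST3pro, SMXL5pro and APLpro lines (5.91%, 6.75% and 9.50% of all genes in either direction), and all of these were lower in GFP-positive nuclei. With DESeq2, 3 genes were called lower in the SMXL5pro line, namely KCS2, CER1 and LTPG1, and 0 in the other lines.

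The libraries separated more often toward GFP-negative nuclei. All 3 GFP-negative libraries lay above all 3 GFP-positive ones for 3, 12 and 11 of the 37 genes in the NST3pro, SMXL5pro and APLpro lines (3.79%, 6.60% and 7.08% of all genes), and the reverse held for 1, 1 and 0 (5.74%, 6.99% and 10.7% of all genes). The median log2 fold change of GFP-positive against GFP-negative nuclei was -0.33, -0.20 and -0.58, while that of all genes was 0.01, -0.03 and 0.09. Of the 16 genes that were higher in LTP1pro nuclei, 3, 10 and 8 separated in this way, and of the other 21 it was 0, 2 and 3. The GFP-positive libraries of these lines also entered the comparison of tissues, so both sets of values share them.

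In the SMXL5pro line, KCS2 had 69.2, 77.8 and 51.1 in GFP-positive and 141, 167 and 220.2 in GFP-negative libraries, with no overlap. Its log2 fold change was -1.42 (SE 0.24), which missed the threshold in edgeR's quasi-likelihood test (adjusted p = 0.0941, and 0.0662 to 0.787 without 1 library). With DESeq2 the adjusted p was 0.000129. CER1 had 198, 247 and 157 against 337, 345 and 447 (log2 fold change -0.91, SE 0.22, adjusted p = 0.363), and LTPG1 21.1, 26.5 and 21.8 against 41.5, 50.2 and 73.0 (log2 fold change -1.24, SE 0.30, adjusted p = 0.366). For all 3 genes every GFP-negative library was above every GFP-positive one.

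In the APLpro line, the smallest p-values belonged to LTPG1, LTP1 and CER1. LTPG1 had 30.8, 23.2 and 18.04 in GFP-positive and 90.1, 60.5 and 31.8 in GFP-negative libraries (log2 fold change -1.33, SE 0.40, adjusted p = 0.437, edgeR's quasi-likelihood test). CER1 had 212, 148 and 54.4 against 617, 492 and 265 (log2 fold change -1.73, SE 0.59, adjusted p = 0.488). LTP1 had 90.1, 52.8 and 7.70 against 348, 197 and 118 (log2 fold change -2.14, SE 0.68, adjusted p = 0.466). Although LTP1 was high in APLpro nuclei among the 7 tissues, it thus had a higher value in each GFP-negative library of that line. In the SMXL5pro line the direction was opposite, with 7.78, 6.48 and 12.9 in GFP-positive and 5.70, 2.95 and 4.06 in GFP-negative libraries. The difference between the SMXL5pro and APLpro lines in this log2 fold change was 3.18 (SE 0.89, adjusted p = 1.00), and that between the NST3pro and APLpro lines was 3.08 (SE 0.89, adjusted p = 0.107). For 0 of the 37 genes did the effect of the sort differ between any pair of lines after adjustment. Of all genes, 0.00313% (NST3pro against SMXL5pro), 0.436% (NST3pro against APLpro) and 0.00627% (SMXL5pro against APLpro) did. At an unadjusted p under 0.05 there were 2, 8 and 1 of the 37 genes in the same order, and the share of all genes at that level was not determined.

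**Figure D5:**
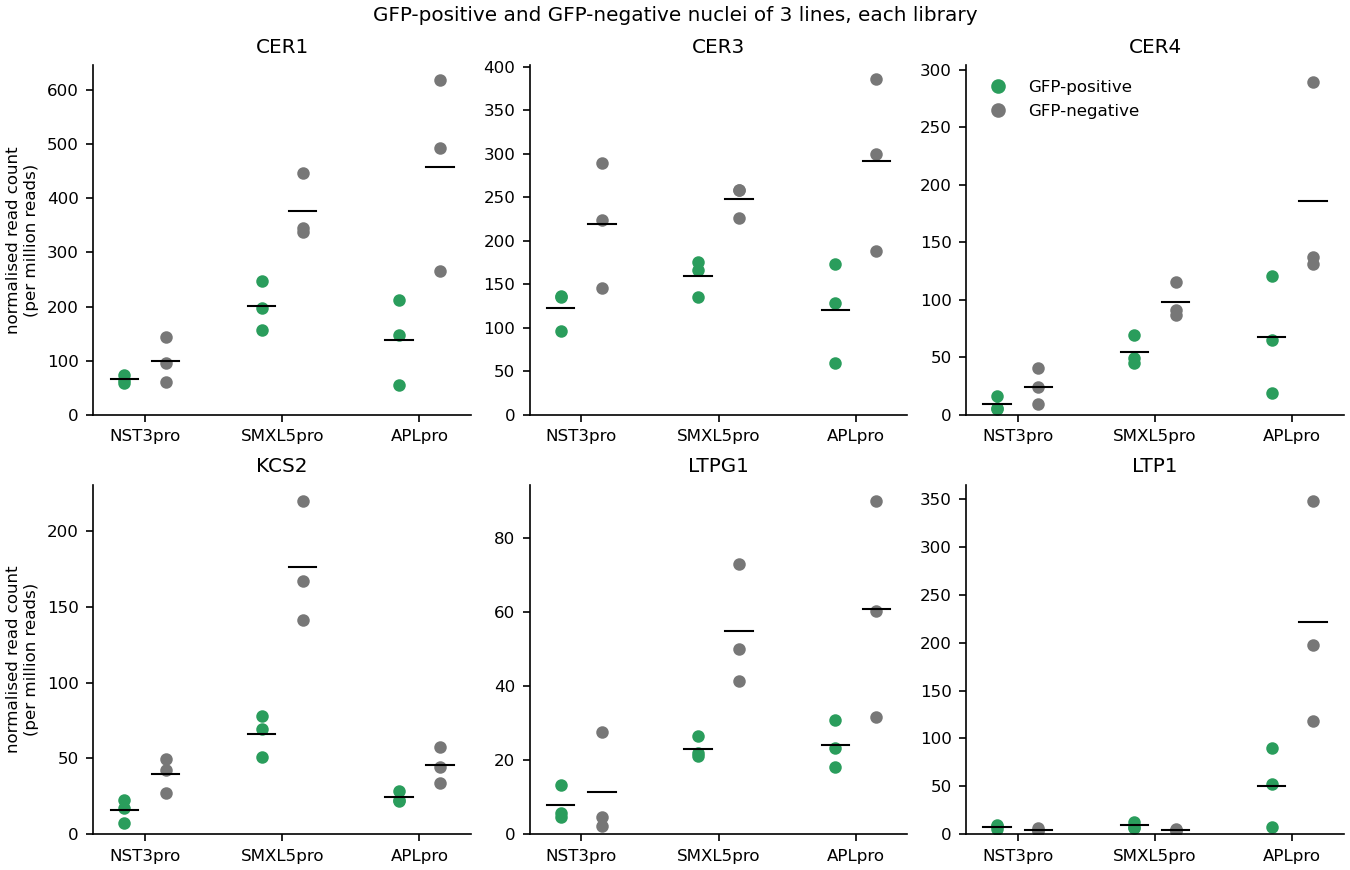
Normalised read count (y axis, CPM, separate scale in each panel) of 6 genes in GFP-positive (green) and GFP-negative (grey) libraries of the 3 lines, with lines for the means of 3 libraries. KCS2, CER1, CER3, CER4 and LTPG1 lie higher in GFP-negative than in GFP-positive libraries without overlap in the SMXL5pro and APLpro lines, and LTP1 does so in the APLpro line (118 to 348 against 7.70 to 90.1).

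In the NST3pro line, the smallest p-values belonged to CYP77A6, LTPG2 and KCS2. CYP77A6 had 6.11, 0 and 9.50 in GFP-positive and 5.20, 209.9 and 3.79 in GFP-negative libraries, and LTPG2 2.90, 15.7 and 3.76 against 6.06, 178 and 2.02. For both genes the difference rested on GFP-negative replicate 47, the shallowest library of all, with 725545 reads. Their log2 fold changes of -3.74 (SE 1.77, adjusted p = 0.813, edgeR's quasi-likelihood test) and -3.02 (SE 1.52, adjusted p = 0.814) turned to 0.23 and 0.86 without it. In this library GPAT6 (251), CYP77A6 (209.9), HTH (327), DCR (223) and LTPG2 (178) all exceeded the highest of the other 5 libraries of the line more than 5-fold, a rule chosen after the values had been seen. This held for 5 of the 37 genes and for 10.4% of all genes. KCS2 did not depend on replicate 47 and had 7.15, 22.6 and 17.3 in GFP-positive against 49.7, 27.1 and 42.1 in GFP-negative libraries (log2 fold change -1.35, SE 0.71, adjusted p = 0.820).

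A separate list of 32 further genes of wax and cutin, none of them among the 38, was measured alongside. Of the 31 that could be tested, 7 were higher and 2 lower in LTP1pro nuclei, with a median log2 fold change of 1.03 (0.33 over all genes). FDH, which is also among the epidermis markers above, was among the 7. The lower genes were CFL1 and MIEL1 (log2 fold changes of -1.09 and -1.55). Over all genes tested, 3.11% were higher and 6.12% lower. Among the genes called, the largest changes were those of KCS20, a 3-ketoacyl-CoA synthase related to KCS2 (3.78, SE 0.15, adjusted p = 1.44e-12, edgeR's quasi-likelihood test, mean 958 in LTP1pro nuclei and at most 142 in another tissue), the acyl-CoA synthetase gene LACS3 (2.62, SE 0.19, adjusted p = 8.58e-09) and KCS3 (2.02, SE 0.23, adjusted p = 4.09e-06). Of 18 tested suberin genes, 2 were higher and 0 lower (against the same 3.11% and 6.12% of all genes), namely FACT, an acyltransferase that makes alkyl caffeates, and the transporter gene ABCG6 (log2 fold change 2.49, SE 0.55, adjusted p = 0.00299). FACT was highest in SMXL5pro nuclei (mean 13.9 against 9.24 in LTP1pro nuclei).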

How the data were processed

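Polyadenylated RNA of sorted nuclei was amplified by the SMART-seq2 protocol without molecular identifiers. When several cDNA preparations existed, the authors preferred those with a clear PCR contrast for the reporter. Per the submitters' processing notes, reads were trimmed with cutadapt 2.3 and aligned with STAR 2.5.0a to TAIR10. The deposited values are raw read counts for 37051 Araport11 genes over whole gene bodies, introns included, from unique hits and without regard to strand. The authors set 4 of the 21 GFP-positive libraries aside after principal component analysis, correlation and the counts of known genes. The counts of 9 libraries stood in 2 tables (0 genes differed) and were used once.

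From these counts, tissues (17 libraries, adjusted p 0.01) and populations within 3 lines (all libraries, adjusted p 0.05) were compared in R 4.3.3 with the two-sided quasi-likelihood F test of edgeR 4.0.16, TMM scaling, filterByExpr (minimum count 10) and Benjamini-Hochberg adjustment over all genes tested. Tissues share 1 estimate of the spread because they have 2 or 3 libraries. Replicates are named by the serial numbers of the labels, which pair no libraries. Alternatives were DESeq2 1.42.0 size factors and tests, no filter, all 21 libraries, a fit of 18 libraries and leaving out each library, and, added after seeing the data, LTP1pro libraries centred on the median of all genes. SE is the standard error of a log2 fold change. Genes were named by rule: the predominant genes, the 10 largest changes called in LTP1pro nuclei, up to 2 genes called higher in another tissue, LTP1, and the 3 smallest p-values in each line, and others were named after their values had been seen. The 38 genes, their roles and the lists were chosen with earlier results of these data known.

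Positions and promoter windows come from the RefSeq annotation of TAIR10.1, matched by gene identifier, which may differ from the annotation used for counting. Depth limits low genes most, and read counts without molecular identifiers are not independent molecules, so that counting error is a lower limit. Figures were drawn with matplotlib 3.10.9.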

Additional observations from a re-analysis of the deposited data

How the results depend on the processing

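The number of genes higher in LTP1pro nuclei was 16, and 18 with all 21 libraries, 18 with DESeq2 size factors, 16 without a filter, 19 with DESeq2, 12 with LTP1pro centred on the median of all genes (chosen after seeing the data) and 11 to 17 without 1 library. Centring lost CER10, GPAT4, CER5 and MYB30 (adjusted p = 0.0388, 0.0124, 0.0236 and 0.0210). The genes differing among tissues numbered 19, and 18, 20, 19 and 27 under the first 4 of these settings and 14 to 20 without 1 library. Predominant genes numbered 2 to 6 without 1 library. DESeq2 was not run for predominance. Calls in the other tissues moved more. With all 21 libraries, genes lower in NST3pro nuclei went from 5 to 0, higher in VND7pro from 2 to 1, lower in PXYpro from 5 to 2, lower in SMXL5pro from 4 to 0, higher in APLpro from 2 to 0 and lower in SCRpro from 1 to 0. With DESeq2 they went to 12 lower in NST3pro, 7 (from 3) lower in VND7pro, 12 lower in PXYpro, 2 (from 0) higher in SMXL5pro, 1 higher in APLpro and 4 lower in SCRpro, and with DESeq2 size factors 1 gene (KCS2) was higher in SMXL5pro. Without 1 library the ranges were 2 to 6 lower in NST3pro, 0 to 2 higher and 1 to 4 lower in VND7pro, 3 to 6 lower in PXYpro, 0 to 1 higher and 2 to 5 lower in SMXL5pro, 0 to 4 higher in APLpro and 0 to 2 lower in SCRpro. Within lines DESeq2 called 3 genes lower in the SMXL5pro line instead of 0, KCS2 among them, whose adjusted p was 1.00 in 1 fit of all 18 libraries of the lines, and without GFP-negative replicate 47 the log2 fold changes of CYP77A6 and LTPG2 in the NST3pro line reversed to 0.23 and 0.86, the other fits without 1 library reaching -4.49 and -4.19. The cause of these shifts was not tested. No paired analysis was possible because the replicate numbers are unique to each library and the labels state no pairs, so a shared preparation of both populations was not taken into account. Where a tissue is left with 1 library, that library is assumed to vary like the others.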
